A study of Mus musculus with 9 samples.

Results

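The secreted ligands of the TGF-beta superfamily were followed in the mouse heart around birth through 10 genes chosen by symbol: the bone morphogenetic proteins Bmp2, Bmp4, Bmp5, Bmp6, Bmp7 and Bmp10, the transforming growth factors Tgfb1, Tgfb2 and Tgfb3, and Inhba, which encodes the subunit of activin A. All 10 were found among the 48820 genes of the expression table, and all 10 were among the 13618 genes that passed the filter of a mean of at least 1 FPKM, the unit of the table, which divides the fragments of a gene by its length and by the depth of the library. RNA from hearts of untreated wild-type C57BL/6J mice was sequenced before birth at E18.5d and after birth at P1d and P7d, with 3 biological replicates per stage and 9 hearts in all. Every heart carries the label male. The RNA is total RNA of the organ, so a change in a transcript can come from fewer cells of a type or from less RNA per cell, and these cannot be told apart.

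These ligands are made as precursors, cut by proprotein convertases, and secreted as dimers that assemble type I and type II receptor serine kinases. BMPs signal mainly through Smad1 and Smad5 and raise the Id genes, while TGF-betas and activins signal mainly through Smad2 and Smad3 and raise genes such as Pmepa1. In the heart, Bmp10 is made by cardiomyocytes and is required for the growth of the embryonic ventricular wall, Bmp2, Bmp4 and Tgfb2 act in the formation of cushions, valves and outflow tract, and the TGF-betas drive fibroblasts to lay down matrix.

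Some libraries stood apart or went against a label. Xist, the RNA of the inactive X chromosome, was at 82.57 and 97.03 FPKM in E18.5d replicates 1 and 3 and at 58.03 and 69.96 FPKM in P7d replicates 2 and 3, where Kdm5d of the Y chromosome was at 0, so 4 of the 9 hearts went against the label male. All 3 P1d hearts had Xist at 0.07 to 0.11 FPKM. At P1d, sex as read from these genes thus goes in part with stage, and the 2 cannot be fully told apart. Scgb3a2, an airway secretory gene, was at 53.24 and 127.06 FPKM in E18.5d replicates 1 and 2 and at 179.21 FPKM in P1d replicate 1, whereas no other heart exceeded 1.0 FPKM, and the alveolar genes Sftpc and Sftpb stayed at or under 0.63 FPKM in every heart. The 4 lung markers together summed to 1.44 to 136.59 FPKM at E18.5d, 0.16 to 221.42 at P1d and 0.0 to 0.23 at P7d. The part of Scgb3a2 and of what came with it in the ligand levels was not tested. Erythroid markers summed to 22742.71 FPKM in E18.5d replicate 3 against 11098.15 and 8417.6 in its stage, to 24724.12 FPKM in P1d replicate 2 against 15696.76 and 12729.4, and to 8548.68 to 10407.62 FPKM at P7d. P1d replicate 2 also had the highest Alb, a liver gene, at 15.88 FPKM (0.01 to 5.86 in the other hearts), and the highest column sum, at 1794160.1 FPKM (1347981.0 to 1520448.2 in the other hearts). The part of these in the ligand levels was not tested either. The depth read from the steps between low values was 25.0 to 42.0 times 1e6 fragments per heart. The summed FPKM of 5 cardiomyocyte markers was 16174.37 to 20786.74 in every heart, and the organ label was thus met. Log2 changes refer to log2(FPKM + 1) and carry limma's standard error (SE) and adjusted p, with a threshold of 0.05.

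The 10 ligands together were highest before birth. Their summed level was 122 ± 5, 84.8 ± 5.94 and 85.0 ± 11.2 FPKM (SD, n = 3) at E18.5d, P1d and P7d, and the E18.5d hearts (117.09 to 127.06 FPKM) did not overlap the P1d hearts (80.99 to 91.6 FPKM) or the P7d hearts (76.34 to 97.72 FPKM). Bmp10 alone made up 45.8% to 47.6% of the sum at E18.5d, 39.0% to 42.8% at P1d and 39.6% to 48.0% at P7d. The TGF-betas made up 26.9% to 29.3%, 34.0% to 37.8% and 31.7% to 38.2%, and the other BMPs 20.6% to 22.8%, 20.7% to 21.1% and 16.1% to 18.8%. Inhba made up at most 4.7% in any heart.

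**Figure D1:**
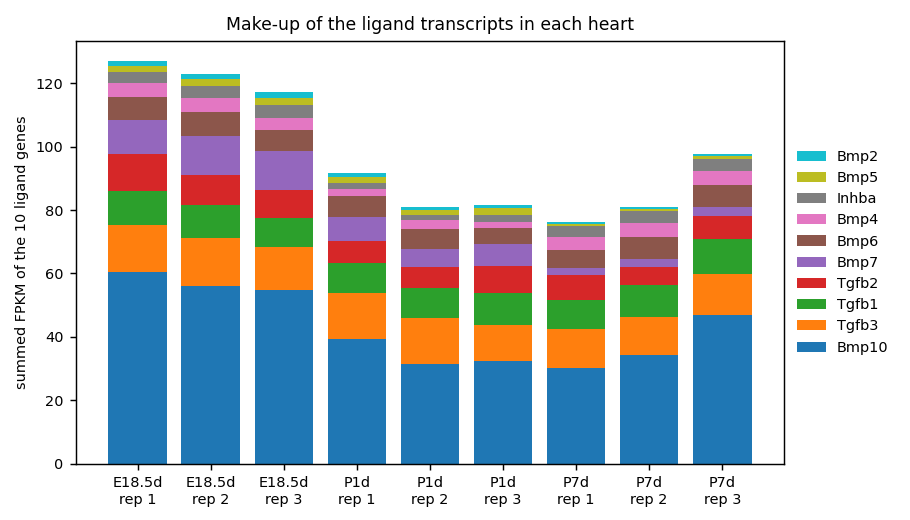
Summed FPKM of the 10 ligand genes (y axis, from 0) in each of the 9 hearts (x axis), with 1 colour per gene stacked in each bar. The 3 E18.5d bars reach 117.09 to 127.06 FPKM, above all P1d and P7d bars, and the lowest block, Bmp10, is the largest in every heart.

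No ligand rose at P1d or P7d against E18.5d. At P1d, 6 of the 10 ligands were lower than at E18.5d (Bmp2, Bmp4, Bmp7, Bmp10, Tgfb2 and Inhba), against 27.6% of all genes tested that were called lower and 18.4% that were called higher. At P7d, 5 were lower than at E18.5d (Bmp2, Bmp5, Bmp7, Bmp10 and Tgfb2), against 36.9% of all genes called lower and 12.5% called higher. Between P1d and P7d, Bmp4 and Inhba rose and Bmp5 and Bmp7 fell, against 15.5% of all genes called higher and 28.6% called lower. The hearts of the earlier and later stage did not overlap for 7 ligands at P1d against E18.5d, all lower later (32.3% of all genes; 22.1% were higher), and for 6 at P7d against E18.5d, again all lower (45.6%; 16.9% higher). Between P1d and P7d they did not overlap for 2 ligands that were higher (19.3%) and 3 that were lower (34.3%). The median log2 change of the ligands was -0.37, -0.34 and -0.03 in these 3 comparisons, and that of all genes tested was -0.06, -0.17 and -0.09. When the columns were rescaled by median of ratios, which brought the median of all genes to 0.0, -0.02 and 0.0, the counts were 5 lower, 4 lower, and 2 higher with 2 lower, against 23.2% of all genes higher and 22.9% lower in the first comparison, 21.3% and 20.9% in the second and 21.9% and 19.8% in the third. In each of the first 2 comparisons the call lost was that of Tgfb2. Every heart enters 2 of the 3 comparisons, so these counts share samples. When the 3 hearts with Scgb3a2 above 50 FPKM were left out together, which leaves 1 heart at E18.5d that is assumed to vary like the others, 2 ligands were lower at P1d (Bmp7 and Inhba) and 3 at P7d (Bmp2, Bmp5 and Bmp7) against E18.5d, and over all genes the calls lower were 1452 and 2262 in place of 3755 and 5025. Without the 2 hearts of high erythroid sum these counts of ligands were 4 and 5, with Bmp2 and Tgfb2 no longer called at P1d. Over all 13618 genes tested the calls lower were then 3196 and 4919. With a covariate for Xist, 4 ligands were lower at P1d against E18.5d, with Bmp2 and Tgfb2 no longer called. The calls lower over all genes were then 2893.

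**Figure D2:**
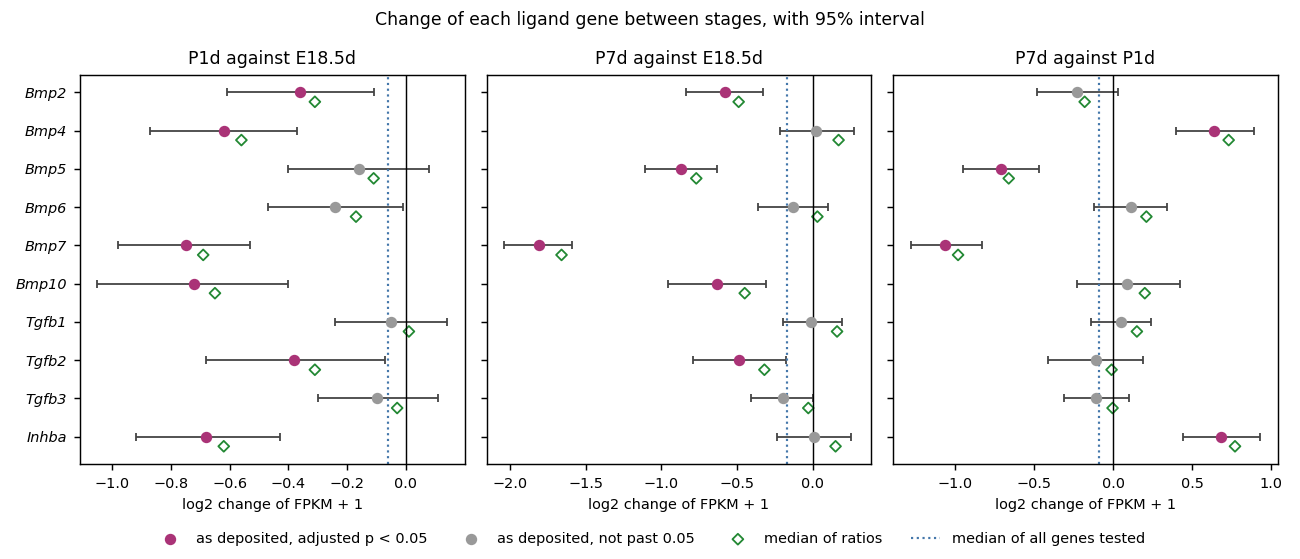
Log2 change of FPKM + 1 (x axis) of each ligand gene (y axis) in the 3 comparisons. Circles give the fit of the deposited values with its 95% interval, dark where the adjusted p is under 0.05, diamonds the change after median of ratios, and the dotted line the median of all genes tested; Bmp7 at P7d against E18.5d lies farthest from 0, at -1.81.

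The ligands followed different time courses. Bmp7 fell at each step. Bmp4 and Inhba fell at P1d and rose again by P7d. Bmp10 fell at P1d and Bmp5 between P1d and P7d. Tgfb1, Tgfb3 and Bmp6 passed the threshold in none of the comparisons, which held for 28.2% of all genes tested.

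**Figure D3:**
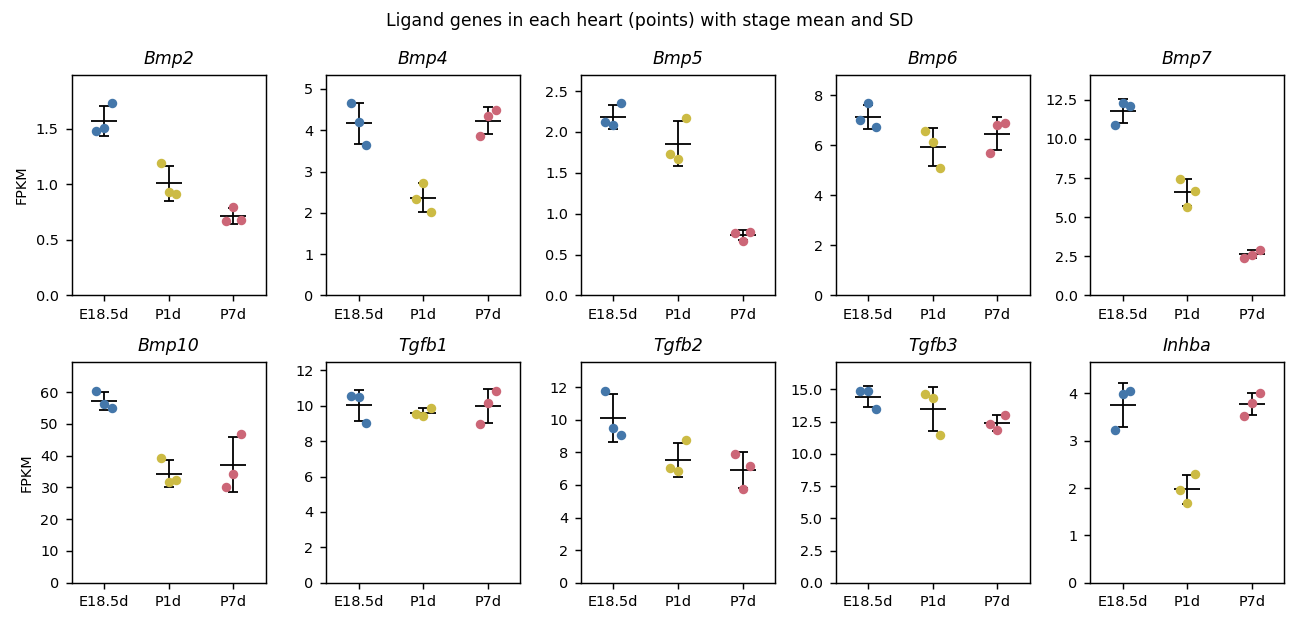
FPKM (y axis, from 0, with its own scale in each panel) of the 10 ligand genes in the 3 hearts of each stage (x axis). Points are hearts, and black bars are the stage mean ± SD; Bmp4 and Inhba are lowest in the 3 P1d hearts, Bmp7 is lower at each later stage, and Tgfb1 overlaps in all 3 stages.

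Bmp10, the ligand that with Bmp9 acts on endothelium through the receptor Acvrl1, was the most abundant ligand at every stage. It lies at chr6:87428994-87437677 (GRCm38, plus strand). Its level was 60.46, 56.18 and 54.86 FPKM in the E18.5d hearts, 39.19, 31.58 and 32.36 FPKM at P1d and 30.23, 34.28 and 46.93 FPKM at P7d. All E18.5d hearts were above all later hearts, and the P1d and P7d hearts overlapped. The mean fell by 39.9% to P1d (log2 change -0.72, SE 0.14, adjusted p = 0.00304) and was 35.0% below E18.5d at P7d (-0.63, SE 0.14, adjusted p = 0.00565). Between P1d and P7d the change was 0.09 (95% interval -0.23 to 0.42, adjusted p = 0.637), and it turned to -0.09 without P7d replicate 3 and to -0.05 with a covariate for Xist. Without the 3 hearts of high Scgb3a2 neither change from E18.5d passed the threshold (-0.76, adjusted p = 0.0764, and -0.57, adjusted p = 0.116). Bmp10 was read from about 3592 to 8768 fragments per heart. The sum of the 4 atrial cardiomyocyte markers (Myl7, Myl4, Sln and Nppa) followed another course. It was 6513.6 to 7680.07 FPKM at E18.5d, 6523.63 to 6926.51 at P1d and 3331.38 to 3558.22 at P7d. Against E18.5d, 2 of the 4 markers (Sln and Nppa) were higher and 2 (Myl7 and Myl4) lower at P1d (18.4% and 27.6% of all genes). The latter 2 moved in the direction of Bmp10 there. At P7d all 4 were lower than at either other stage (36.9% of all genes against E18.5d and 28.6% against P1d). Their part in the level of Bmp10 was not tested.

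The promoters of 7 of the 10 ligands were matched in RefSeq (GRCm38.p6), and those of Bmp2, Bmp7 and Tgfb3 were not analysed here. A set of 5 motifs was searched on both strands in the 200 bases before the start of transcription: TATAAA, the core element bound by TBP; GGGCGG, bound by Sp1; CACGTG, an E-box; AGATAA, bound by factors such as Gata4; and GTCTAGAC, the palindrome of the Smad binding element. The window of Bmp10 (chr6:87428794-87428993, plus strand) is printed because Bmp10 is the leading ligand, with motif matches in capitals as in the other windows.
Bmp10: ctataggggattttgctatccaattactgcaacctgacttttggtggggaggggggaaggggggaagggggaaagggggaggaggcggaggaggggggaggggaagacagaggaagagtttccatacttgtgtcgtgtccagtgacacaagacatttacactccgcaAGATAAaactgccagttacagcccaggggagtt
It holds 1 match to AGATAA, at positions -33 to -28 from the start, a motif found in 7.8% of the 32851 promoters of the table, and none of the other motifs. No matches of different motifs overlapped in these windows. Its GC content was 54.0%, near the median of 53.0% over all promoters.

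Bmp4, a ligand of mesoderm and outflow tract, and Inhba, the activin A subunit, were lower at P1d than both before and after. Bmp4 (chr14:46383520-46390669, minus strand) was at 4.65, 4.20 and 3.65 FPKM in the E18.5d hearts, 2.33, 2.73 and 2.03 FPKM at P1d and 3.86, 4.34 and 4.50 FPKM at P7d. Inhba (chr13:16011851-16031621, plus strand) was at 3.23, 3.98 and 4.06 FPKM at E18.5d, 1.97, 1.68 and 2.29 FPKM at P1d and 3.53, 3.80 and 4.0 FPKM at P7d. For both genes every P1d heart was below every heart of the other stages, while the E18.5d and P7d hearts overlapped.

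The mean of Bmp4 fell by 43.3% to P1d (log2 change -0.62, SE 0.11, adjusted p = 0.00156) and rose to 1.79 times the P1d level at P7d (0.64, SE 0.11, adjusted p = 0.00148). Inhba fell by 47.3% to P1d (-0.68, SE 0.11, adjusted p = 0.000929) and rose to 1.91 times the P1d level at P7d (0.68, SE 0.11, adjusted p = 0.000995). These 4 changes stayed past the threshold without any one heart and under every rescaling. The adjusted p was between 0.00103 and 0.00798 for the P7d rises when a heart was left out. With a covariate for Xist, the fall of Bmp4 to P1d was -0.57 (adjusted p = 0.0153). No P1d heart had high Xist, so the part of sex in these P1d levels cannot be fully told apart from that of stage. Without the 3 hearts of high Scgb3a2 together, the fall of Bmp4 to P1d was -0.47 and lost its call (adjusted p = 0.113). Against E18.5d, the P7d change was 0.02 for Bmp4 (95% interval -0.22 to 0.27) and 0.01 for Inhba (-0.24 to 0.25) and neither passed the threshold (adjusted p = 0.889 and 0.951). Both calls, lower at P1d than at E18.5d and higher at P7d than at P1d, were made for 8.95% of all genes tested.

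The windows before the starts of these genes are shown together because their levels moved together: Bmp4 at chr14:46390670-46390869 (minus strand, printed along the gene) and Inhba at chr13:16011651-16011850 (plus strand).
Bmp4: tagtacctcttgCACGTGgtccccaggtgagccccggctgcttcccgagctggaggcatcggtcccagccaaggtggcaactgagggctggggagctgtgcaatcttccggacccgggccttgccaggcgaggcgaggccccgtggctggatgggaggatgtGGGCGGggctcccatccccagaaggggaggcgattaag
Inhba: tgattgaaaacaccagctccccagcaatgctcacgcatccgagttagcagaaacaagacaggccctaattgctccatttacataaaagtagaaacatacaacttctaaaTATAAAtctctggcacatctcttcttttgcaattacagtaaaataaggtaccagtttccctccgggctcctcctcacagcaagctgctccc
They have little in common in composition. The Bmp4 window had a GC content of 67.5%, with 11 CG pairs, 1 match to GGGCGG (positions -38 to -33; 31.0% of all promoters) and 1 to CACGTG (-188 to -183; 5.26%). The Inhba window had a GC content of 43.5%, with 3 CG pairs, and its 1 match was to TATAAA at positions -91 to -86 (9.96%). No motif of the set was matched in both.

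Inha, the inhibin alpha subunit, pairs with the Inhba product to form inhibin A, which opposes activin. It moved the other way at P1d: Inha was at 0.87, 1.36 and 1.38 FPKM at E18.5d, 2.47, 2.04 and 2.31 FPKM at P1d and 1.54, 1.67 and 2.03 FPKM at P7d, and its log2 change from E18.5d to P1d was 0.58 (SE 0.13, adjusted p = 0.00539). The ratio of Inhba to Inha within a heart, which no rescaling of a column can move, was 3.71, 2.93 and 2.94 at E18.5d, 0.798, 0.824 and 0.991 at P1d and 2.29, 2.28 and 1.97 at P7d. Inhba was thus above Inha in all E18.5d and P7d hearts and below it in the P1d hearts. In P1d replicate 3 the 2 were nearly equal (2.29 against 2.31 FPKM). Inha was low in every heart, at 0.87 to 2.47 FPKM. This ratio was chosen after the values were seen and is given with no test.

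Bmp7, a ligand that shares type I receptors with Bmp5 and Bmp6, showed the largest change of the family. It lies at chr2:172868012-172940321 on the minus strand. Its level was 10.87, 12.27 and 12.13 FPKM at E18.5d, 7.43, 5.67 and 6.66 FPKM at P1d and 2.40, 2.60 and 2.89 FPKM at P7d, with no overlap between any stages. The mean fell by 44.0% to P1d (log2 change -0.75, SE 0.1, adjusted p = 0.000308), fell by 60.1% from P1d to P7d (-1.06, SE 0.1, adjusted p = 6.57e-05), and fell by 77.6% in all (-1.81, SE 0.1, adjusted p = 1.55e-06). Bmp7 was the one ligand called lower at both steps, a course shared by 3.06% of all genes tested. Relative to the median of all genes, its log2 change from E18.5d to P7d was -1.64.

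The fall of Bmp7 and the return of Bmp4 turned the order of these BMPs around. In the E18.5d hearts Bmp7 was the third among the 10 ligands by level (11.8 ± 0.771 FPKM, SD, n = 3) and Bmp4 the seventh (4.17 ± 0.501 FPKM), and at P7d Bmp4 was the sixth (4.23 ± 0.333 FPKM) and Bmp7 the eighth (2.63 ± 0.246 FPKM). The ratio of Bmp7 to Bmp4 within a heart was 2.34, 2.92 and 3.32 at E18.5d, 3.19, 2.08 and 3.28 at P1d and 0.622, 0.599 and 0.642 at P7d. It was above 1 in all 6 hearts of the earlier stages and below 1 in all P7d hearts, again as a description chosen after the values were seen.

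Bmp5 and Bmp2 were the least abundant ligands and also ended lower. Bmp5 (chr9:75775364-75900310, plus strand) was at 2.12, 2.08 and 2.35 FPKM at E18.5d, 1.73, 1.67 and 2.17 FPKM at P1d and 0.77, 0.67 and 0.78 FPKM at P7d. The E18.5d and P1d hearts overlapped and all were above the P7d hearts. Bmp5 fell by 60.1% between P1d and P7d (log2 change -0.71, SE 0.11, adjusted p = 0.00073) and by 66.1% from E18.5d to P7d (-0.87, SE 0.11, adjusted p = 0.000177), while from E18.5d to P1d the change was -0.16 (95% interval -0.4 to 0.08, adjusted p = 0.249). The percentage fall after P1d was that of Bmp7, whose level had already fallen by P1d.

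Bmp2 (chr2:133552159-133562885, plus strand), a signal from the myocardium of the atrioventricular canal in the embryo, was at 1.48, 1.51 and 1.73 FPKM at E18.5d, 1.19, 0.93 and 0.91 FPKM at P1d and 0.67, 0.80 and 0.68 FPKM at P7d, with no overlap between stages. From E18.5d to P7d Bmp2 fell by 54.4% (log2 change -0.58, SE 0.11, adjusted p = 0.00225). The fall to P1d (-0.36, SE 0.11, adjusted p = 0.0264) lost its call with a covariate for Xist (adjusted p = 0.126), with quantile normalization (0.0649), without the 3 hearts of high Scgb3a2 (0.0723) or the 2 of high erythroid sum (0.131), and without E18.5d replicate 2 (0.054), E18.5d replicate 3 (0.0782), P1d replicate 2 (0.0596) or P1d replicate 3 (0.0647). From P1d to P7d the change was -0.23 (95% interval -0.48 to 0.03, adjusted p = 0.131). Bmp2 and Bmp5 were read from about 73 to 183 and 91 to 273 fragments per heart, the fewest of the family with Bmp4 (101 to 333), and the pseudocount of 1 makes their log2 changes smaller than those of their FPKM.

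Bmp6 (chr13:38345107-38500302, plus strand), the ligand that sets hepcidin in the liver, was at 7.02, 7.68 and 6.74 FPKM at E18.5d, 6.58, 6.12 and 5.10 FPKM at P1d and 5.70, 6.83 and 6.88 FPKM at P7d. The P1d hearts lay below the E18.5d hearts, and the P7d hearts overlapped both. The change to P1d was -0.24 (95% interval -0.47 to -0.01, adjusted p = 0.0866), past the threshold with columns of equal sum (0.0327), and that to P7d was -0.13 (-0.36 to 0.1, adjusted p = 0.328). The 3′ end of Bmp6 shares exon bases with Txndc5 on the opposite strand, which was at 48.88 to 71.67 FPKM, and without strand the reads of the pair cannot be told apart there.

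Among the TGF-betas, Tgfb3 was the highest and Tgfb2 the one that passed the threshold. Tgfb2 (chr1:186622792-186705989, minus strand), the isoform that the embryonic heart needs for valves and septa, was at 11.78, 9.49 and 9.04 FPKM at E18.5d, 7.01, 6.87 and 8.76 FPKM at P1d and 7.91, 5.74 and 7.17 FPKM at P7d. The E18.5d hearts were above all later hearts by a narrow margin (9.04 against 8.76 FPKM), and the P1d and P7d hearts overlapped. The log2 change was -0.38 at P1d (SE 0.13, adjusted p = 0.0447) and -0.49 at P7d (SE 0.13, adjusted p = 0.0145), and the mean fell by 25.3% and 31.3%. Neither call held after median of ratios (adjusted p = 0.0797 and 0.0748). Without E18.5d replicate 1, the heart with the highest Tgfb2, the adjusted p was 0.151 at P1d and 0.0543 at P7d. The call at P1d was also lost without E18.5d replicate 2 (0.0697), P1d replicate 1 (0.121), P1d replicate 2 (0.123) or P7d replicate 3 (0.0607), and that at P7d without P7d replicate 2 (0.0556). Other settings that ended the call at P1d were quantile normalization (0.103), no filter on low genes (0.095), the covariate for Xist (0.0897), equal sums of protein-coding nuclear genes (0.0575), eBayes without trend (0.0508) and a fit of the 2 stages alone (0.0503). At P7d it was also lost with quantile normalization (0.0685) and with equal sums of protein-coding nuclear genes (0.0782). Without the 3 hearts of high Scgb3a2 the adjusted p was 0.533 at P1d and 0.243 at P7d, and without the 2 of high erythroid sum it was 0.11 at P1d.

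Tgfb1 (chr7:25687002-25705077, plus strand), the isoform best known for fibrosis and immune control, was at 10.56, 10.48 and 9.02 FPKM at E18.5d, 9.53, 9.40 and 9.88 FPKM at P1d and 8.96, 10.14 and 10.85 FPKM at P7d, and all 3 stages overlapped. Its log2 change was -0.05 at P1d (95% interval -0.24 to 0.14, adjusted p = 0.639) and -0.01 at P7d (-0.2 to 0.19, adjusted p = 0.963), and after median of ratios 0.01 and 0.16, with neither past the threshold. The 200 bases before its start (chr7:25686802-25687001, plus strand) are shown as those of a ligand without a call.
Tgfb1: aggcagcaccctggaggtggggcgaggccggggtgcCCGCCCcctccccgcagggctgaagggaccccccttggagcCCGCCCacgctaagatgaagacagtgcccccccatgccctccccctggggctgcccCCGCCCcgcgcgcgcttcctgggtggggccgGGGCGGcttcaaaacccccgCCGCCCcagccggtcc
They hold 5 matches to GGGCGG or its reverse complement, the first at -164 to -159 and the last at -16 to -11, and a GC content of 77.5%, which 2.79% of all promoters exceed. None of the other motifs was matched there.

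Tgfb3 (chr12:86056745-86079041, minus strand), the isoform of palate and lung development, was the second in level at each stage, at 14.89, 14.91 and 13.51 FPKM at E18.5d, 14.64, 14.34 and 11.50 FPKM at P1d and 12.31, 11.85 and 13.04 FPKM at P7d. The P7d hearts were below the E18.5d hearts, and the P1d hearts overlapped both. The log2 change from E18.5d to P7d was -0.20 (95% interval -0.41 to 0.0, adjusted p = 0.0934) and past the threshold when only these 2 stages were fitted (0.0316) or without P1d replicate 3 (0.0265). After median of ratios it was -0.03 (adjusted p = 0.775).

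In the order of levels within a stage, some neighbours did not separate. At E18.5d, Bmp10 and Tgfb3 stood above the rest without overlap, while Bmp7, Tgfb2 and Tgfb1 overlapped in turn, as did Bmp4 and Inhba. At P1d, Tgfb2, Bmp7 and Bmp6 overlapped in turn, and so did Bmp4, Inhba and Bmp5. At P7d the overlapping neighbours were Tgfb2 with Bmp6, Bmp4 with Inhba and Bmp5 with Bmp2. FPKM are per length, so that these levels can be set beside each other.

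The rest of the pathway was counted from lists of its receptors, Smads, antagonists, activating proteins and response genes. Of 17 receptors and co-receptors, 14 were tested. At P1d 4 were higher than at E18.5d and none lower, against the 18.4% and 27.6% of all genes given above. After median of ratios these were 5 and none, against 23.2% and 22.9%. Tgfbr2, the type II receptor of TGF-beta, was at 22.2 ± 0.561 FPKM at E18.5d (SD, n = 3) and 31.1 ± 2.09 FPKM at P1d (log2 change 0.47, adjusted p = 0.000296). Tgfbr3, the co-receptor betaglycan, which holds Tgfb2 and lets inhibin oppose activin, was at 18.1 ± 1.6, 27.3 ± 3.36 and 16.8 ± 0.764 FPKM at the 3 stages (0.56 at P1d, adjusted p = 0.00132).

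Against E18.5d, the P7d hearts had 3 of the 14 receptors higher and 4 lower, beside 12.5% and 36.9% of all genes. After median of ratios these were 6 and 1, beside 21.3% and 20.9%. The largest rises were those of the BMP co-receptors Hjv (stage means 13.0 ± 0.616, 17.0 ± 3.81 and 38.0 ± 3.06 FPKM; log2 change to P7d 1.48, adjusted p = 2.41e-05) and Rgma (2.98 ± 0.204, 4.29 ± 0.225 and 6.33 ± 0.548 FPKM; 0.88, adjusted p = 4.2e-05). Tgfbr1, the type I receptor of TGF-beta, fell from 14.4 ± 1.13 to 9.30 ± 0.962 FPKM (-0.58, adjusted p = 0.000767). Hjv and Rgma bind BMP ligands and raise the response of the cell to them. From P1d to P7d, 2 receptors rose and 5 fell, beside 15.5% and 28.6% of all genes. After median of ratios these were 3 and 3, beside 21.9% and 19.8%. Tgfbr3 (-0.66, adjusted p = 0.00064) was among those that fell.

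Of 8 Smads, 7 were tested, with 2 higher and 2 lower at P1d (18.4% and 27.6% of all genes) and none higher and 2 lower at P7d (12.5% and 36.9%). After median of ratios 1 was higher and 1 lower at P7d (21.3% and 20.9%). The lower ones at P1d were the inhibitory Smads, themselves response genes of the pathway: Smad6, which acts mainly on BMP signals, was at 9.49 ± 1.11, 6.46 ± 1.26 and 6.28 ± 0.546 FPKM (SD, n = 3) at the 3 stages (log2 change -0.50 at P1d, adjusted p = 0.0114), and Smad7 at 9.94 ± 1.5, 6.65 ± 1.21 and 8.21 ± 0.165 FPKM (-0.52, adjusted p = 0.00968). Smad4, the shared partner, was 20.4% higher at P1d (0.26, adjusted p = 0.036), and Smad2 was 21.8% lower at P7d (-0.34, adjusted p = 0.0168; 0.231 after median of ratios). Of 15 antagonists, 7 were tested. None was called at P1d, where 18.4% of all genes were higher and 27.6% lower. By P7d 3 fell and none rose (36.9% and 12.5% of all genes). After median of ratios 1 was higher and 2 lower at P7d (21.3% and 20.9%). Sost, a secreted DAN-family protein that also inhibits Wnt signals, fell from 8.59 ± 1.4 to 2.48 ± 0.353 FPKM (-1.46, adjusted p = 0.00175). Fstl3, which traps activin, fell by 39.5% (-0.63, adjusted p = 0.0229, and 0.0734 after median of ratios). Bmper fell by 37.5% (-0.51, adjusted p = 0.00572). Noggin (Nog), chordin (Chrd), gremlin (Grem1) and follistatin (Fst) were under a mean of 1 FPKM and were not tested.

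**Figure D4:**
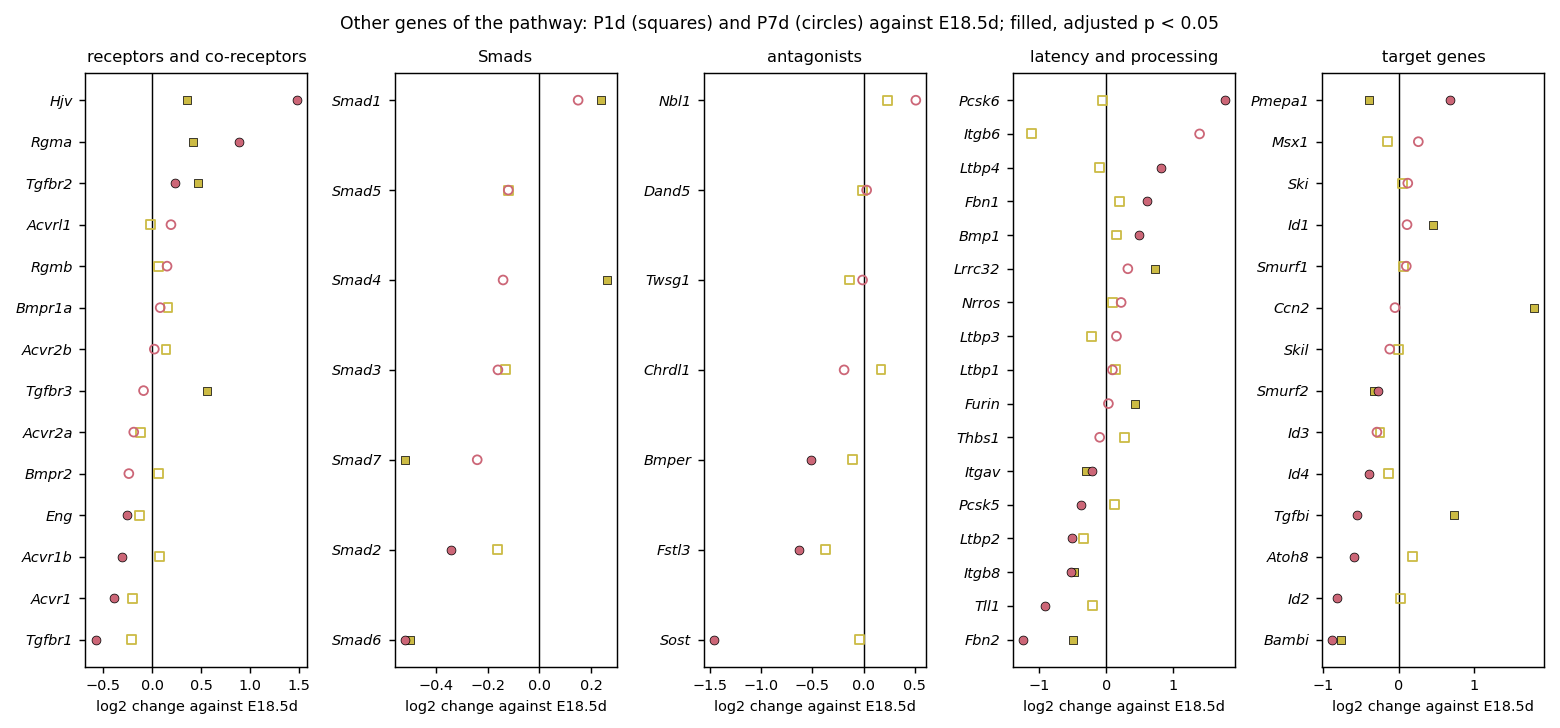
Log2 change of FPKM + 1 against E18.5d (x axis) of tested genes of 5 pathway lists (y axis), at P1d (squares) and P7d (circles), filled where the adjusted p is under 0.05. Hjv, Pcsk6 and Pmepa1 lie farthest to the right of their lists at P7d, Sost, Fbn2 and Bambi farthest to the left, and Ccn2 is the P1d square at 1.80.

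All 17 genes of latency and processing were tested, with 2 higher and 3 lower at P1d (18.4% and 27.6% of all genes) and 4 higher and 6 lower at P7d (12.5% and 36.9%). After median of ratios the counts were 4 and 3 at P1d (23.2% and 22.9% of all genes) and 6 and 3 at P7d (21.3% and 20.9%). Among the enzymes that cut the precursors, Pcsk6 (PACE4) was at 7.95, 7.28 and 11.11 FPKM at E18.5d, 7.55, 9.80 and 7.66 FPKM at P1d and 30.98, 32.22 and 32.59 FPKM at P7d, which is 3.64 times the E18.5d mean (log2 change 1.77, adjusted p = 1.41e-05). Pcsk5, another convertase, went the other way, from 4.20 to 2.99 FPKM (-0.38, adjusted p = 0.0196), and it lost its call after median of ratios. Furin, also a convertase, had stage means of 24.4, 33.3 and 24.9 FPKM. It was higher at P1d (0.43, adjusted p = 0.00128) and not called at P7d against E18.5d (0.03, adjusted p = 0.794). Tll1, a protease that cleaves chordin, fell from 2.30 ± 0.196 to 0.753 ± 0.0513 FPKM (SD, n = 3; -0.91, adjusted p = 9.72e-05). Fbn2, a fibrillin of the microfibrils that hold latent TGF-beta and BMPs, fell at both steps, from 65.2 ± 3.48 to 45.8 ± 1.13 and 26.9 ± 0.39 FPKM (-1.24 at P7d, adjusted p = 4.63e-07). Other genes of these kinds rose from E18.5d to P7d: Bmp1, a protease of the same family as Tll1, from 20.5 to 29.1 FPKM (0.49, adjusted p = 0.000839), the fibrillin Fbn1 from 119 to 180 FPKM (0.61, adjusted p = 0.000484), and Ltbp4, which binds latent TGF-beta, to 1.76 times its level (0.81, adjusted p = 3.27e-05). Pcsk5, Furin, Bmp1, Fbn1 and Ltbp4 are named after their values were seen. Lrrc32 (GARP), which anchors latent TGF-beta on cells, was at 1.83 times its E18.5d level at P1d (0.73, adjusted p = 0.00243), and Itgb8, part of an integrin that activates it, was 41.8% lower (-0.49, adjusted p = 0.00521).

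Of 15 response genes of the pathway that were tested, 3 were higher and 4 lower at P1d (18.4% and 27.6% of all genes), and 2 were higher and 6 lower at P7d (12.5% and 36.9%). After median of ratios 5 were higher and 3 lower at P7d (21.3% and 20.9%). Pmepa1, a feedback inhibitor of TGF-beta signals, was at 7.96, 8.98 and 7.47 FPKM at E18.5d, 5.80, 5.58 and 6.35 FPKM at P1d and 12.90, 13.57 and 14.26 FPKM at P7d (log2 change -0.40 at P1d, adjusted p = 0.00329; 0.68 at P7d, adjusted p = 0.000158). Every P1d heart was below every other heart, as for Bmp4 and Inhba, and unlike these Pmepa1 passed the threshold upwards from E18.5d to P7d. Bambi, a decoy receptor raised by BMP signals, had stage means of 6.68 ± 0.595, 3.50 ± 0.34 and 3.16 ± 0.272 FPKM (-0.77 at P1d, adjusted p = 0.000196).

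Other response genes peaked at P1d. Ccn2 (CTGF), which many signals besides TGF-beta raise, was at 72.55, 65.29 and 76.10 FPKM at E18.5d, 255.91, 338.01 and 181.36 FPKM at P1d and 48.71, 76.33 and 87.19 FPKM at P7d (log2 change 1.80 at P1d, adjusted p = 0.000323). Tgfbi, a matrix protein, was at 20.5 ± 1.17, 34.9 ± 4.36 and 13.7 ± 0.501 FPKM (SD, n = 3; 0.73 at P1d, adjusted p = 0.000178). Every P1d heart was above every other heart for both. Id2, a BMP response gene, differed by 0.02 at P1d (95% interval -0.21 to 0.26) and fell by 44.8% to P7d (-0.82, adjusted p = 0.000203), while Id1, named after its values were seen, was at 1.37 times its E18.5d level at P1d (0.45, adjusted p = 0.0185).

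**Figure D5:**
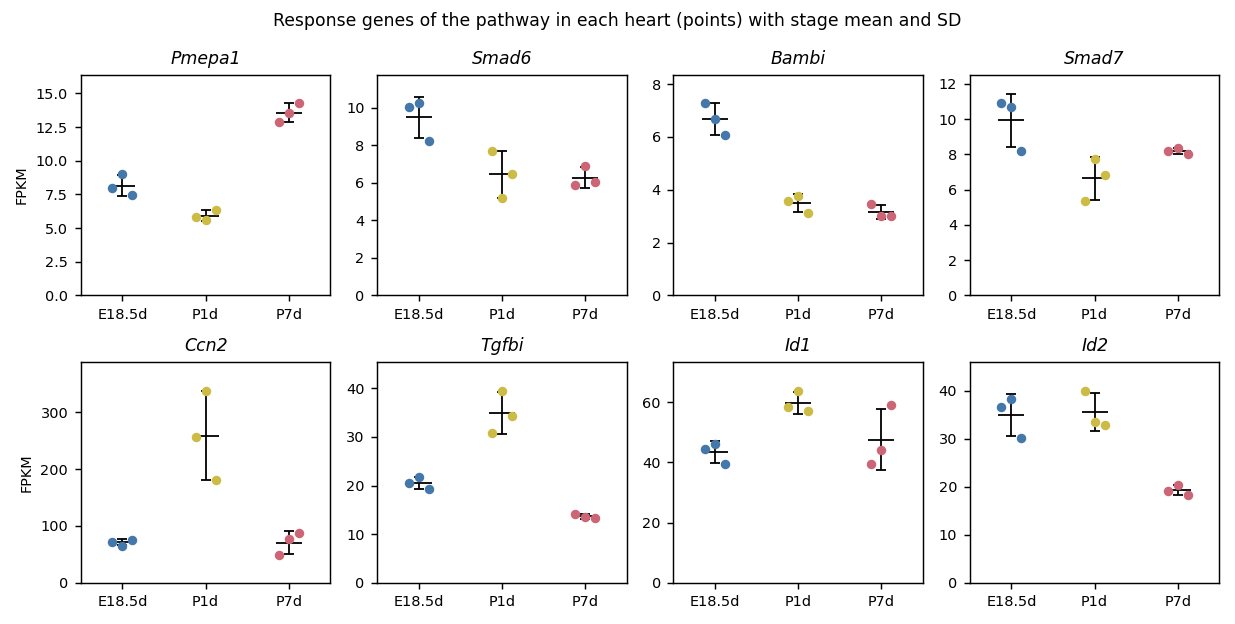
FPKM (y axis, from 0, with its own scale in each panel) of 8 response genes in the 3 hearts of each stage (x axis), with points for hearts and black bars for the stage mean ± SD. Pmepa1 is lowest at P1d, whereas Ccn2 and Tgfbi are highest there, and Bambi is lower in all later hearts than at E18.5d.

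Of 23 other ligands of the superfamily, 3 were tested (Inha, Gdf11 and Gdf10) and the other 20 were under a mean of 1 FPKM, Mstn, Gdf15, Nodal and Inhbb among them. Gdf11, close kin of myostatin, was at 3.03 ± 0.233, 1.96 ± 0.49 and 1.99 ± 0.16 FPKM (SD, n = 3) in stage order. Its log2 change was -0.46 at P1d (adjusted p = 0.016) and -0.43 at P7d (adjusted p = 0.0195; 0.0848 after median of ratios).

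Markers of other cell types of the heart also moved. Beside them, 18.4% of all genes were called higher and 27.6% lower at P1d against E18.5d, and 12.5% and 36.9% at P7d. The summed FPKM of 3 endocardial markers (Npr3, Nfatc1 and Plvap) was 56.84 to 61.19 at E18.5d, 42.13 to 46.01 at P1d and 22.15 to 24.92 at P7d, with 1 of the 3 lower at P1d and all 3 lower at P7d. That of 4 epicardial markers (Wt1, Upk3b, Msln and Upk1b) was 44.35 to 54.23, 44.72 to 60.82 and 22.94 to 27.31. Of these 4, 1 was higher and 1 lower at P1d, and 3 were lower at P7d. Fibroblast markers summed to 533.73 to 542.78, 428.14 to 587.95 and 718.15 to 733.69, with 2 of 5 lower at P1d and 2 of 5 higher at P7d. Endothelial markers summed to 304.71 to 334.26 at E18.5d and 401.36 to 418.95 at P7d, with 4 of 5 higher and 1 lower at P7d. Smooth muscle and pericyte markers summed to 127.35 to 187.16, 145.98 to 212.12 and 210.93 to 227.49. Of these 5, 2 were higher at P1d, and 3 were higher and 1 lower at P7d. Macrophage markers summed to 29.57 to 38.37, 39.96 to 59.13 and 40.93 to 46.3, with 3 of the 4 tested higher at P1d and 1 at P7d. No marker of these lists was at 0. The endocardial sum was lower at each later stage, as the levels of Bmp7 and Bmp2 were, and the fibroblast sum was low in 2 of the 3 P1d hearts, where Bmp4 and Inhba were low in all 3. The part of these cell types in the ligand levels was not tested.

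For Bmp7, Bmp5 and Bmp10, the ligands with the largest change in any comparison on the log2(FPKM + 1) scale, the protein-coding genes with the nearest course over the 9 hearts were found by the root-mean-square difference of log2(FPKM + 1), each gene centred on its own mean. That scale makes the changes of low genes smaller: in FPKM, Bmp2 fell by 54.4% to P7d, Inhba fell by 47.3% and Bmp4 fell by 43.3% to P1d, each more than Bmp10, which fell by 39.9%. The nearest to Bmp7 was Mest (difference 0.128), an imprinted gene of fetal growth at 398, 205 and 109 FPKM in the stage means, with Prss35 (0.145), Grb10 (0.154) and Slc1a1 (0.159) among the next. Grb10, also imprinted and a brake on insulin signals, was at 395, 244 and 132 FPKM. The nearest to Bmp5 were Hnrnpa1 (0.0474), Gprin3, Mpp6, Zfp618 and Fam49a, and among those nearest to Bmp10 were Taf5 (0.124), Cdr2 (0.126), 2310057M21Rik (0.133) and Mob3a (0.134). These genes share the 9 libraries with the ligands, and the likeness is a description with no test.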

How the data were processed

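RNA from 9 hearts was sequenced from libraries made with the NEBNext Ultra kit. The table that the authors deposited gives FPKM to 2 decimals for 48820 genes, with a column per heart, and 0 columns lacked a sample. STAR and GRCm38 (mm10) are in the submitters' processing notes, and the counting tool, its strand setting and the annotation are not given in the sources used here. Identifiers were matched to GENCODE M21 of GRCm38 (48144 found). Depth was read from FPKM steps (83.7% to 90.2% of low values whole within 0.1 of a fragment).

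Genes whose mean over the hearts reached 1 FPKM (13618) were fitted as log2(FPKM + 1) with limma 3.58.1 in R 4.3.3 (eBayes with trend), all stages in 1 fit, with Benjamini-Hochberg adjustment over all genes tested. The fit was tested on simulated data. Tables and figures used Python 3.11.15, pandas 2.3.3 and matplotlib 3.10.9. The alternatives were another pseudocount, filter, scaling or fit, a replicate block, a covariate for Xist, leaving out each heart and, chosen after seeing the data, leaving out together the hearts with high Scgb3a2 or erythroid sums.

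The members and lists were chosen with earlier results of these data known. Named genes were the 10 ligands and, from each list, up to 3 with the largest change at P7d and up to 3 at P1d against E18.5d, past the threshold and without overlap. Some genes of the lists and of those nearest to a ligand are not reported here.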

Additional observations from a re-analysis of the deposited data

How the results depend on the processing

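Each of the 30 changes of a ligand was computed under 23 alternatives, except where the filter left a gene out, and 599 of these values kept direction and side of the threshold, 44 lost the call, 5 gained one and 30 turned sign, none of the last in a called change. With a mean of at least 5 FPKM, which removes Bmp2, Bmp4, Bmp5 and Inhba from the test, 3 ligands were lower at P1d and 3 at P7d against E18.5d, and 0 higher and 1 lower at P7d against P1d. Of the 9130 genes then tested, 2689 and 3786 were lower against E18.5d, and 1482 higher and 3081 lower at P7d against P1d. With an absolute log2 change of at least 1 these counts of ligands were 0, 1, 0 and 1, and the calls over all genes 716, 650 and 555 of 6260, 6731 and 6013. Without 1 heart, 4 to 6 ligands were lower at P1d, 4 to 6 at P7d, and 2 higher and 2 to 3 lower at P7d against P1d, the range set by Bmp2, Tgfb2 and Tgfb3. Over all genes, 3065 to 3676 were then lower at P1d and 4058 to 5325 at P7d. At P7d against P1d, 1647 to 2083 were higher and 3061 to 3821 lower. Leaving out together the 3 hearts of high Scgb3a2, or the 2 of high erythroid sum, was added after seeing the data. The former gave 2 ligands lower at P1d and 3 at P7d against E18.5d, with fewer samples and 2471 and 3252 genes called.

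The signs that turned were those of small changes. At P1d against E18.5d, Tgfb1 was at 0.01 (median of ratios) and 0.03 (quantile normalization), and Tgfb3 at 0.01 without P1d replicate 3 (-0.16 to 0.01 over the hearts left out). At P7d against E18.5d, Bmp4 was at -0.01 with equal sums and -0.05 and -0.02 without E18.5d replicate 3 or P7d replicate 3 (-0.05 to 0.09 over the hearts left out). Bmp6 was at 0.03, 0.03 and 0.02 and Tgfb1 at 0.16, 0.15 and 0.15 with median of ratios, quantile normalization and equal sums of protein-coding genes, and Tgfb1 at 0.03, 0.03 and 0.06 when E18.5d replicate 1, E18.5d replicate 2 or P7d replicate 1 was left out (-0.07 to 0.06). Inhba was at -0.03 with equal sums and at -0.07 and -0.02 without E18.5d replicate 1 or P7d replicate 3 (-0.07 to 0.06). At P7d against P1d, Bmp10 was at -0.05 with the covariate for Xist and -0.09 without P7d replicate 3 (-0.09 to 0.22), Tgfb1 at -0.01 without P7d replicate 3 (-0.01 to 0.12), Tgfb2 at 0.01, 0.03 and 0.00453 with equal sums, equal sums of protein-coding genes or without P7d replicate 2 (-0.2 to 0.00453), and Tgfb3 at 0.01 and 0.04 with these 2 scalings. Without the hearts of high Scgb3a2, Tgfb1 was at 0.09 at P1d and 0.13 at P7d and Inhba at -0.08 at P7d, and without those of high erythroid sum Bmp4 was at -0.05 at P7d, all against E18.5d. The cause was not tested.

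Over all genes, median of ratios called 3154 higher and 3112 lower at P1d (2505 and 3755 as deposited), 2905 and 2848 at P7d against E18.5d (1706 and 5025), and 2986 and 2700 at P7d against P1d (2112 and 3901). Columns of equal sum gave 3929 calls at P7d against P1d, and the covariate for Xist 3905. The replicate numbers did not pair the hearts (correlations of same-numbered hearts from -0.055 to 0.112), and with the replicate block 6, 5 and 4 ligands and 6173, 6667 and 5857 genes were called. Depth limits Bmp2, Bmp4 and Bmp5 most, with 73 fragments in the lowest heart.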
